A study of Mus musculus with 2 samples.

Results

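The cells described here are low cycling natural killer (NK) or group 1 innate lymphoid (ILC1)-like cells of mouse fetal liver, 988 of the 8583 fetal liver cells that passed the quality filter (11.5%, exact binomial 95% interval 10.8 to 12.2, counting error only). A cell was kept when it had at least 500 genes and at most 10% of its unique molecular identifiers (UMIs, which count single RNA molecules) from mitochondrial genes. It was chosen when its UMIs of the NK receptor genes Klrd1, Klrk1, Klrc1 and Ncr1 summed to at least 4, its UMIs of Il22, Il23r, Il17re, Ccr6 and Cxcr5 and those of Il13, Il17rb, Icos, Stab2, Slc38a4 and Rxrg each summed to under 4, and its UMIs of the division genes Mki67, Top2a, Nusap1, Birc5, Ube2c and Cenpf summed to under 10. The study asks where innate lymphoid cells come from before birth. It profiled progenitors that carry the integrin α4β7 (αLPs) with droplet 3′ single-cell RNA sequencing, in 1 library from E14.5 (embryonic day) fetal liver and 1 library from adult bone marrow, both of untreated wild-type B6 mice. The sorted cells lacked lineage markers, Flt3 and CD25, and carried CD45, CD127 (the interleukin 7 receptor) and α4β7. The labels do not give how many embryos or mice were pooled or which antibodies made up the lineage mix, and an adult age in weeks stands on both samples, the fetal one included. The same batch label stands on both libraries.

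NK cells and ILC1s are lymphocytes without rearranged antigen receptors that answer infected, transformed or stressed cells with cytokines, chiefly interferon gamma, and, in NK cells, with granule killing. Much of their recognition rests on lectin-like receptors encoded in the NK gene complex of mouse chromosome 6: Klrd1 (CD94) pairs with Klrc1 (NKG2A, inhibitory) or Klrc2 (NKG2C, activating), Klrk1 (NKG2D) is activating, and the Ly49 receptors of the Klra family read classical MHC class I. Activating receptors signal through the small adaptors Tyrobp (DAP12), Hcst (DAP10) and Fcer1g. The T-box factors Tbx21 (T-bet) and Eomes direct the lineage, with Eomes tied to conventional NK cells and Tbx21 shared with ILC1s. Group 2 cells (ILC2) depend on Gata3, and group 3 cells (ILC3) are grouped with the lymphoid tissue inducer (LTi) cells of the fetus.

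The fetal liver matrix held 8946 barcodes, of which 363 were removed, and the kept cells carried 91285900 UMIs. The bone marrow matrix held 7367 barcodes, of which 109 were removed, with 29941097 UMIs in 7258 kept cells. There were 19 barcodes kept in both libraries. With 1 library per tissue no comparison here has a replicate, so no test was possible. Levels are UMIs of a gene per 1000000 UMIs of the class (CPM), ratios are log2 ratios of CPM, and their 95% intervals are exact and cover counting error only. A gene was counted as higher or lower when its ratio was at least 2-fold and its level at least 10 CPM in the higher class. Tissue, age and library cannot be told apart.

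The 988 cells held 8521859 UMIs, with a median of 8169 per cell (889 to 23600), a median of 2117.5 genes and 2.71% mitochondrial UMIs. The values that chose them are given as a description. Their receptor UMIs summed to 4 to 102 per cell, with a median of 12, and Klrd1 supplied 86.6% of them. Klrd1 was found in 980 of the cells, Klrk1 in 447, Klrc1 in 319 and Ncr1 in 136, and 382 cells (38.7%) had none of the last 3. At the receptor threshold, 89 cells had a sum of 4, and 125 cells just outside it had a sum of 3. The adaptor Tyrobp, which the rule did not use, stood at 1438 CPM in the first and 1387 CPM in the second. At the division threshold, 39 cells had a sum of 9 and 26 cells outside had a sum of 10, while 349 of the chosen cells had 0. A further 294 cells with a receptor sum of 4 or more were left out by the ILC3 or ILC2 genes, and their median was 15060.5 UMIs. Doublets were not called.

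Markers outside the rule were read to check the name. Tyrobp had a UMI in 94.3% of the cells when each cell was thinned to 4000 UMIs (936 cells, with 52 shallower cells left out), Fcer1g in 97.6% and Nkg7, a membrane protein of cytotoxic granules, in 77.6%. Klrb1c (NK1.1), Il2rb (the interleukin 2 and 15 receptor chain), Tbx21 and Eomes were sparser, in 8.23%, 17.5%, 8.33% and 2.46% of the cells. Of the B lineage cells of the same library (146 cells, 141 of them deep enough), Tyrobp was found in 47.5% at the same depth, Fcer1g in 15.6%, Nkg7 in 2.13%, and Klrb1c, Il2rb, Tbx21 and Eomes in 0%. In the LTi or ILC3-like cells described further on, Tyrobp was found in 46.1%, Fcer1g in 94.8% and Nkg7 in 6.52%. In the ILC2-like cells the shares were 35.2%, 35.5% and 65.2%. Tyrobp, Fcer1g and Nkg7 were thus not particular to NK or ILC1-like cells in this library. Defining genes of mature cytotoxic NK cells were close to the floor: Gzmb stood at 2.11 CPM, Prf1 (perforin) at 0.469, Fasl at 0.117, Klrg1 at 1.64, Itgam (CD11b) at 1.06 and Itga2 (CD49b) at 2.70. The ILC1 integrin Itga1 (CD49a) stood at 1.76 CPM. Other ILC1 features were higher: against all other kept fetal liver cells 5 of 13 measured (Cxcr6, Cxcr3, Cd200r1, Cd200r2 and Xcl1) were higher and 0 lower (2.02% and 3.34% of all genes). Against the LTi or ILC3-like cells 5 of 13 were higher and 3 lower, and against the ILC2-like cells 6 of 14 and 1. Beside the receptors that chose them, the cells carried adaptor and granule genes that other cells of the library share in part. They had few transcripts of a mature killing program, and these data do not part NK cells from ILC1s. The genes of the sort itself, which are no finding, were read too: Il7r stood at 159 CPM, Itga4 at 95.9, Itgb7 at 67.7, Il2ra at 1.41 and Flt3 at 0.704.

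Genes of cell types outside the ILCs were scarce, and those of ILC2s and ILC3s were present at a lower level. The 10 B lineage markers, 13 myeloid markers, 15 erythroid, mast and platelet markers, 14 hepatocyte and stromal markers and the 7 listed T cell genes that the files hold each summed to a median of 0 UMIs per cell. Cd14, Elane, Ctsg and Fcgr1 among the myeloid markers, Alb, Fgb, Col1a1, Col3a1, Cdh5 and Kdr among the hepatocyte and stromal markers, and Ms4a1, Cd5, Cd8b1, Alas2, Mcpt8 and Dntt had 0 UMIs in all 988 cells. The 15 ILC2 markers summed to a median of 4 UMIs per cell, against 15 in the ILC2-like cells, and the 17 LTi and ILC3 markers to 2, against 30 in the LTi or ILC3-like cells. Both lists include rule genes. Their sums were kept under 4 UMIs here and were at least 4 in the compared class, so part of each gap is fixed by the choice. Outside the rule, 3 of 5 measured ILC2 markers were lower than in the ILC2-like cells and 0 higher (3.11% of all genes were lower). Of 11 such LTi and ILC3 markers, 10 were lower than in the LTi or ILC3-like cells and 0 higher (7.13% of all genes were lower). At least 5 UMIs of the ILC2 markers were found in 403 of the cells (40.8%), of the LTi and ILC3 markers in 284 (28.7%) and of the B lineage markers in 14. The 14 stem and early progenitor markers summed to a median of 1.

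For comparison, 2 other ILC-like populations of the same library were chosen by the mirror of the same rule: 512 LTi or ILC3-like cells (median 6164.5 UMIs) and 1117 ILC2-like cells (median 10684 UMIs). Set against the LTi or ILC3-like cells, the NK receptor list beyond the 4 rule genes had 7 of its 11 measured members at least 2-fold higher and 0 lower, with a median log2 ratio of 2.67, while the median over all 6580 genes measured was -0.07. Over all of those genes 5.05% were higher and 7.13% lower. Set against the ILC2-like cells, 10 of 11 were higher and 0 lower, with a median log2 ratio of 3.52 against -0.05 over 6295 genes, of which 5.02% were higher and 3.11% lower. Both comparisons share the low cycling NK or ILC1-like cells. The sum of the 4 rule receptors was at least 4 in these cells and under 4 in both compared populations. Receptors that rise with the rule genes are therefore set apart in part by the choice, and the receptor list is a description of it. A TMM scaling of the LTi or ILC3-like comparison, which moved all ratios by 0.12 on the log2 scale, turned the split from 332 higher and 469 lower genes to 407 and 380.

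The receptors differed in how sharply they marked the cells. Klrb1c stood at 22.6 CPM in the low cycling NK or ILC1-like cells, 0.295 in the LTi or ILC3-like cells and 0.0811 in the ILC2-like cells. Klrc2 (NKG2C) stood at 28.6 CPM, against 0 UMIs and 0.162 CPM, and Klri2, an orphan lectin-like receptor, at 48.3 CPM, against 2.07 and 0.243. Cd226 (DNAM-1), an activating receptor for nectin-like ligands, stood at 75.2, 11.8 and 16.9 CPM. Klrb1b, an inhibitory receptor for Clr-b, was shared with the LTi or ILC3-like cells: 152 CPM against 145, a log2 ratio of 0.07 (95% interval -0.08 to 0.22), and 12.9 in the ILC2-like cells. Cd160 was graded, at 283, 167 and 35.5 CPM. Fcgr3 (CD16), the Fc receptor of antibody-dependent killing, stood at 54.1, 30.7 and 16.8 CPM.

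**Figure D1:**
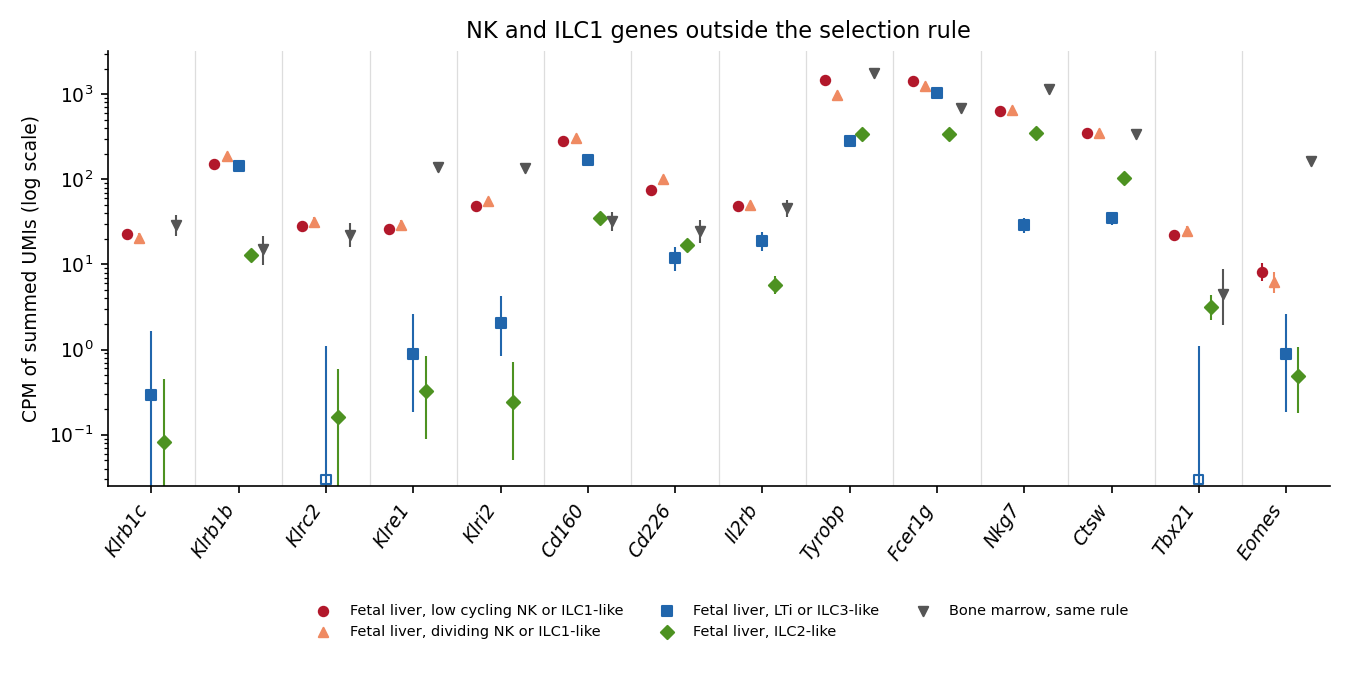
Levels of 14 NK receptor and lineage genes that the rule did not use, in the low cycling NK or ILC1-like cells, the dividing NK or ILC1-like cells, the LTi or ILC3-like cells, the ILC2-like cells and the bone marrow cells of the same rule. The axis is CPM on a log scale, bars are 95% Poisson intervals (counting error only), and open symbols mark genes with 0 UMIs, drawn at the bottom of the axis. Klrb1c sits at 22.6 CPM in the low cycling fetal cells and under 0.3 CPM in the LTi or ILC3-like and ILC2-like cells, while Eomes sits at 8.21 CPM in the fetal cells and 165 CPM in bone marrow.

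Among the adaptors and signalling genes, 6 of 19 were higher than in the LTi or ILC3-like cells and 2 were lower (5.05% and 7.13% of all genes). Against the ILC2-like cells 8 of 21 were higher and 3 were lower (5.02% and 3.11% of all genes). Tyrobp stood at 1475 CPM in the low cycling NK or ILC1-like cells, 283 in the LTi or ILC3-like cells and 340 in the ILC2-like cells, a log2 ratio of 2.38 over the first. Hcst followed another order, with 196, 249 and 95.5 CPM. Fcer1g stood at 1420, 1046 and 337 CPM. Syk, a kinase recruited by these adaptors, stood at 11.1, 2.07 and 3.65 CPM. Its T cell counterpart Zap70 ran the other way against the LTi or ILC3-like cells, at 13.4 CPM against 48.4, as did the scaffold Lat, at 43.1 against 123. Cd3g, a T cell receptor subunit gene that innate lymphocytes can also transcribe, stood at 279 CPM, against 26.9 in the LTi or ILC3-like cells and 523 in the ILC2-like cells.

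Effector genes separated the cells further. Of 19 measured effector and cytotoxic genes, 11 were higher than in the LTi or ILC3-like cells and 1 (Lta) was lower, with a median log2 ratio of 3.33. Against the ILC2-like cells 12 were higher and 2 (Gzma and Cst7) lower, with a median of 1.36. The shares over all genes were 5.05% higher and 7.13% lower in the first comparison, and 5.02% and 3.11% in the second. Ifng, the gene of interferon gamma, stood at 438 CPM in the low cycling NK or ILC1-like cells, 12.7 in the LTi or ILC3-like cells and 60.4 in the ILC2-like cells. It was 34.5-fold the level of the first (log2 ratio 5.11, 4.68 to 5.58) and 7.26-fold that of the second (2.86, 2.75 to 2.97). At 4000 UMIs per cell, 55.1% of the cells had an Ifng UMI (51.9 to 58.3), against 2.92% of the LTi or ILC3-like cells, 9.04% of the ILC2-like cells and 0% of the B lineage cells. Without thinning the share was 67.5%. The Ifng ratio ranged from 4.23 to 5.76 over 12 alternatives against the LTi or ILC3-like cells and from 2.37 to 3.10 against the ILC2-like cells.

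Nkg7 stood at 630 CPM, against 28.9 in the LTi or ILC3-like cells (21.8-fold) and 354 in the ILC2-like cells. The chemokine gene Ccl5 stood at 1836 CPM, against 104 (17.6-fold) and 827. Granzyme A (Gzma) was at 58.1 CPM, far above the 1.48 of the LTi or ILC3-like cells and below the 123 of the ILC2-like cells, with a log2 ratio over the latter of -1.08. Of the cysteine protease Ctsw, found in killer lymphocytes, the levels were 350, 34.9 and 104 CPM. Xcl1, whose product draws cross-presenting dendritic cells, stood at 59.7 CPM, against 2.66 and 2.11. Lymphotoxin alpha (Lta), a cytokine of LTi cells, ran the other way, at 139 CPM against 1805 in the LTi or ILC3-like cells (13-fold lower, log2 ratio -3.70, -3.79 to -3.61) and 49.4 in the ILC2-like cells. Its partner Ltb stood at 781, 1426 and 258 CPM.

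Transcription factors drew a less sharp line. Tbx21 stood at 21.9 CPM in the low cycling NK or ILC1-like cells and had 0 UMIs in the LTi or ILC3-like cells, which bounds the log2 ratio at no less than 4.63, and 3.16 CPM in the ILC2-like cells (log2 ratio 2.79, 2.29 to 3.33). Eomes was low in all 3, at 8.21, 0.886 and 0.487 CPM. Of 13 type 1 factors measured against the LTi or ILC3-like cells, 5 were higher (Tbx21, Ikzf2, Ikzf3, Irf8 and Runx2) and 2 lower (Nfil3 and Bhlhe40). Of 14 measured against the ILC2-like cells, 5 were higher and 0 lower. All genes had 5.05% higher and 7.13% lower in the first comparison, and 5.02% and 3.11% in the second.

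Factors of shared ILC progenitors were within 2-fold or lower. Of 10 such factors, 0 were higher and 3 lower than in the LTi or ILC3-like cells (Tcf7, Tox2 and Id3), where 5.05% of all genes were higher and 7.13% lower. Against the ILC2-like cells 0 were higher and 5 lower (Zbtb16, Gata3, Bcl11b, Sox4 and Lmo4), with a median log2 ratio of -0.91, where 5.02% of all genes were higher and 3.11% lower. Zbtb16 (PLZF), which marks the committed ILC precursor, stood at 21.9 CPM, against 45.1 in the ILC2-like cells. Bcl11b, needed for ILC2 identity, stood at 9.62 CPM against 134 (log2 ratio -3.80, -4.14 to -3.48). Gata3 stood at 70.3 CPM against 236, and Tcf7 (TCF-1) at 156 CPM against 411 in the LTi or ILC3-like cells. Id2, which represses B and T cell fates in every ILC, was close in the 3 populations, at 795, 609 and 621 CPM.

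Interferon gamma binds its receptor, activates the kinases JAK1 and JAK2 and so brings about binding to GAS elements in target promoters. IRF family factors, Irf1 among them, act through the ISRE. The targets include the immunity-related GTPases (Igtp, Irgm1, Iigp1, Tgtp1), the guanylate-binding proteins (Gbp genes) and the MHC class I loading machinery. Of 17 measured genes of the interferon gamma response list, 15 were higher and 0 lower than in the LTi or ILC3-like cells, with a median log2 ratio of 2.40. The counts against the ILC2-like cells were also 15 and 0, with a median of 1.82. The shares of all genes were 5.05% higher and 7.13% lower in the first comparison, and 5.02% and 3.11% in the second. Igtp stood at 200 CPM in the low cycling NK or ILC1-like cells, 44.9 in the LTi or ILC3-like cells and 38.8 in the ILC2-like cells. Irf1 stood at 163, 41.9 and 66.4 CPM. Gbp2 stood at 64.0, 5.91 and 18.1 CPM, and Iigp1 at 49.4, 2.95 and 17.0. The receptor chain Ifngr1 stood at 272, 251 and 59.0 CPM.

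Promoters of these genes are printed because the list moved together and the 2 motifs named above could be read in them. RefSeq (GRCm38.p6) gave a promoter for 15 of the 21 listed genes, and Iigp1, Gbp4, Gbp6, Gbp8 and Ly6a were among those with no entry in the table used. The search took the 250 bases before and the 50 bases after each start site, on both strands. GAS was written as TTCNNNGAA and ISRE as GAAA, any 2 bases and GAAA again. GAS was found in 8 of the 15 genes (53.3%) and in 9.55% of 27025 genes with a promoter in the table. ISRE was found in 10 (66.7%) and in 3.99%, and either in 12 (80%) and in 12.9%. The list was made of genes picked as interferon gamma targets, so its high shares come with that choice. They are no result of these cells. The 4 shown are Igtp (chr11:58199306-58199555, + strand) and Tgtp1 (chr11:48992247-48992496, - strand), which hold both motifs, Gbp2 (chr3:142620413-142620662, + strand), which holds an ISRE, and Irf1 (chr11:53769764-53770013, + strand), which holds a GAS. Each shows only the 250 bases before the start site, 5′ to 3′ on the gene's strand, and capitals mark the motif matches.
Igtp: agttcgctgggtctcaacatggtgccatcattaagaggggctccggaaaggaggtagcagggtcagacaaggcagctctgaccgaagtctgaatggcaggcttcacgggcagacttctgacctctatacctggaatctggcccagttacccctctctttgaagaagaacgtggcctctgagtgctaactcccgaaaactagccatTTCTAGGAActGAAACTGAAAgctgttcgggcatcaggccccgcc
Tgtp1: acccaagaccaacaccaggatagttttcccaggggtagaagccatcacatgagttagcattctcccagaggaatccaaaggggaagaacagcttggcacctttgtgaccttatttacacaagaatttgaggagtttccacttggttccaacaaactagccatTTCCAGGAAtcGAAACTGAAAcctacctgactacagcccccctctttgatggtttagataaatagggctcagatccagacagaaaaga
Gbp2: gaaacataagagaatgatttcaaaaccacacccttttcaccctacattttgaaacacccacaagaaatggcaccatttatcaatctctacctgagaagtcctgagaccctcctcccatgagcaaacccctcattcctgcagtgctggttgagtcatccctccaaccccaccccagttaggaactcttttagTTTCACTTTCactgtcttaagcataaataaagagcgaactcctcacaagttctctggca
Irf1: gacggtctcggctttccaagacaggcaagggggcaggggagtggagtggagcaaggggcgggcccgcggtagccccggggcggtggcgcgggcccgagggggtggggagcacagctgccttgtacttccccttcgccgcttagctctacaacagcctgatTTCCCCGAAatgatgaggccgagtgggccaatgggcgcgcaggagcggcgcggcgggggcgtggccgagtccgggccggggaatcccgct
In Igtp the GAS began 45 bases and the ISRE 34 bases before the start site, and in Tgtp1 they began 88 and 77 bases before it. The same arrangement, a GAS that ends 2 bases before an ISRE, was in 4 of the 15 genes (Igtp, Irgm2, Tgtp1 and Tgtp2) and in 5 of the 27025, a spacing that was searched after it had been seen. Tgtp1 and Tgtp2 are near-identical copies whose reads may be split between them. The Igtp and Irgm2 promoters also share long stretches around the motifs, so the 4 genes are not independent occurrences of the spacing. In Gbp2 the ISRE, on the other strand, began 59 bases before the start, and in Irf1 the GAS began 90 bases before it. A match is a description of the letters and not of binding.

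**Figure D2:**
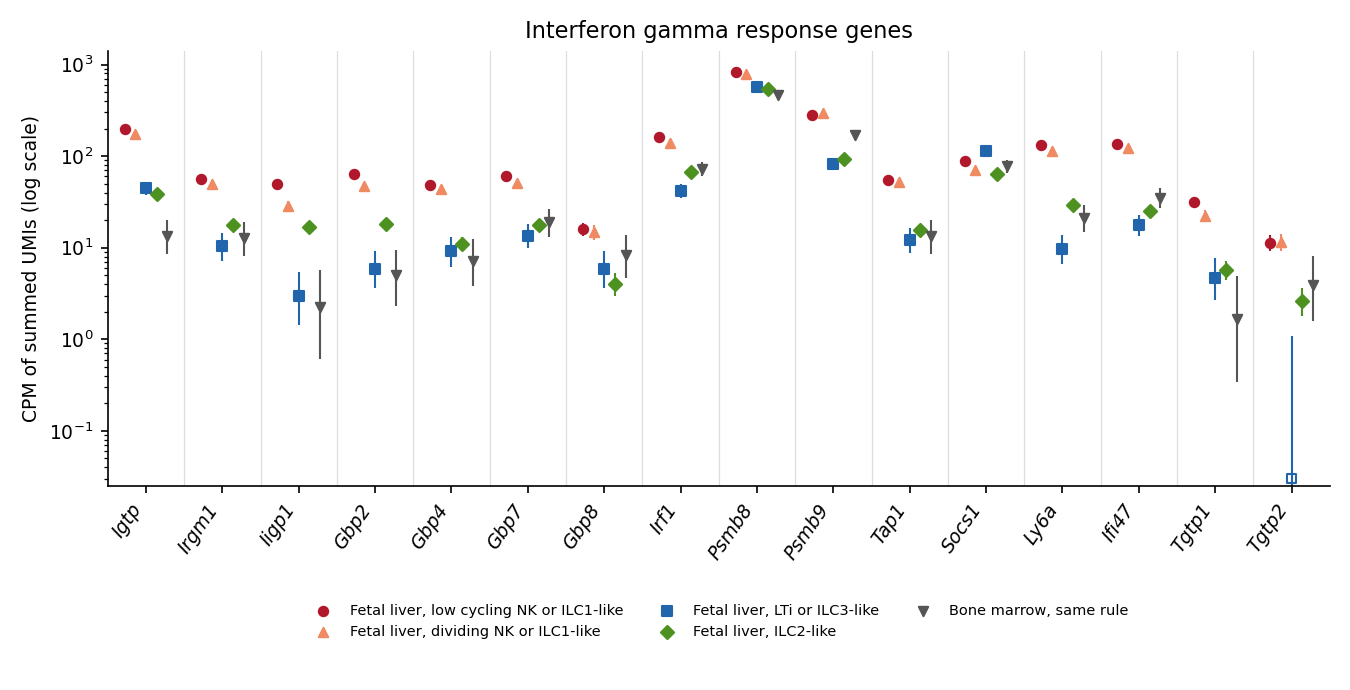
Levels of 16 interferon gamma response genes in the low cycling NK or ILC1-like cells, the dividing NK or ILC1-like cells, the LTi or ILC3-like cells, the ILC2-like cells and the bone marrow cells of the same rule, in CPM on a log axis with 95% Poisson intervals. Open symbols mark 0 UMIs. Igtp lies at 200 and 176 CPM in the low cycling and dividing fetal cells and at 44.9 CPM or less in the other 3 populations.

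Response transcripts were not confined to cells with an Ifng UMI. Thinned to 4000 UMIs, the low cycling NK or ILC1-like cells had a median of 9 UMIs of the list (quartiles 5 and 14), against 3 in the LTi or ILC3-like cells, 3 in the ILC2-like cells and 2 in the B lineage cells. The 420 cells with 0 Ifng UMIs had a median of 7 (quartiles 3 and 12), the 276 cells with 1 or 2 had 11, and the 240 cells with 3 or more had 11. The dividing NK or ILC1-like cells, 60.5% of which had an Ifng UMI, had a median of 8. By median the cells without an Ifng UMI lay above the LTi or ILC3-like, ILC2-like and B lineage cells. Their lower quartile of 3 equalled the median of the LTi or ILC3-like and ILC2-like cells. MHC class I genes followed. Of 18, 11 were higher and 0 lower than in the LTi or ILC3-like cells (5.05% and 7.13% of all genes). Against the ILC2-like cells 12 were higher and 0 lower (5.02% and 3.11% of all genes). H2-K1, a classical class I heavy chain, stood at 648 CPM, against 278 and 125. Of the type I interferon list, 2 of 7 measured genes were higher and 1 lower than in the LTi or ILC3-like cells (Rtp4 and Ifi27l2a against Isg20). All 6 measured against the ILC2-like cells were higher, Isg15 among them at 17.8 CPM against 4.95, while Ifi27l2a fell within 2-fold (log2 ratio 0.36) when the receptor sum had to reach 8.

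Cytokine receptors and homing receptors differed gene by gene. Il2rb, through which interleukin 15 sustains NK cells, stood at 48.7 CPM in the low cycling NK or ILC1-like cells, 18.9 in the LTi or ILC3-like cells and 5.76 in the ILC2-like cells, while Il7r stood at 159, 540 and 147. Cxcr6, which holds lymphocytes in the liver through Cxcl16, stood at 216 CPM in the low cycling NK or ILC1-like cells, 164 in the LTi or ILC3-like cells and 129 in the ILC2-like cells. Cxcr3, the receptor of interferon-induced chemokines, stood at 97.5, 13.6 and 18.6 CPM. The gut-homing receptor Ccr9 stood at 24.5 CPM, against 1.77 and 78.7. Cd200r1, a feature of ILC1s, stood at 52.3, 20.7 and 8.19 CPM.

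The genes with the largest differences among those of at least 50 CPM included several outside these lists. Ifitm1 and Ifitm2, membrane proteins that restrict viral entry, stood at 1022 and 394 CPM, against 22.5 and 12.1 in the LTi or ILC3-like cells. Tmsb15a, an actin-binding thymosin, stood at 153 against 6.79, and Cd200r4, which couples to Tyrobp, at 72.2 against 3.25. Ly6d, at 104 against 0.591 CPM, rested on 17 cells described further on: without those and the cells of high MHC class II genes its log2 ratio was 0.92. The lowest relative to the LTi or ILC3-like cells were Krt8 (2.11 against 163 CPM), Rasl11a (4.58 against 210), Hmgn3 (64.2 against 1102), Bank1 (3.64 against 57.0) and Hbegf (4.34 against 63.5). The survival gene Bcl2 stood at 61.3 CPM against 254 in the same comparison. Of 19 early response genes 1 was higher and 5 lower (5.05% and 7.13% of all genes), with Jun among the lower at 809 against 2089. Relative to the ILC2-like cells, Serpina3f (51.3 against 1.70 CPM), Ccl4 (90.6 against 3.81), Ccl3 (87.1 against 3.73), Car2 (161 against 8.52) and Cd7 (823 against 53.5) were among the highest. Homer2 (2.35 against 80.5 CPM), Cpa3 (24.3 against 187), Cck (25.0 against 166), the fetal RNA H19 (39.8 against 193) and Hes1 (96.9 against 432), a Notch target, were among the lowest.

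Against all other kept fetal liver cells, which include the dividing NK or ILC1-like cells, 2.02% of 6344 genes were higher and 3.34% lower. The NK receptor list had 9 of 11 measured members higher and 0 lower (median log2 ratio 1.46), the effector list 8 of 19 and 0 (0.94), and the interferon gamma response list 14 of 17 and 0 (1.36), where the median over all genes was -0.05. The choice by receptor genes bears on the receptor list here too. Ifng stood at 438 CPM against 125 in the rest of the library. Gimap4, a GTPase of lymphocyte survival, stood at 230 against 54.9, and Pglyrp1, a peptidoglycan-binding protein, at 265 against 82.2. Genes of other lineages were on the low side, with Prtn3 of neutrophil precursors at 2.11 against 70.9 CPM and the globin gene Hbb-bs at 8.68 against 87.0. The Hbb-bs ratio turned from -3.32 to 0.64 when cells needed at least 1000 genes, while that of Prtn3 stayed at -5.07. The share of cells with an Hbb-bs UMI at 4000 UMIs was 1.82% in the low cycling NK or ILC1-like cells and between 1.69% and 2.84% in the dividing, LTi or ILC3-like, ILC2-like and B lineage cells.

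The second NK or ILC1-like population of the fetal liver met the same receptor, ILC3 and ILC2 conditions but had a division sum of 10 or more: 592 cells with a median of 12662.5 UMIs. Of 6145 genes, 33 (0.537%) were at least 2-fold higher in the low cycling cells and 179 (2.91%) were lower. All 31 measured genes of the G2 and M phase list, which holds none of the 6 genes that set the threshold, were lower, with a median log2 ratio of -2.27 against 0.02 over all genes. Plk1, the kinase of mitotic entry, stood at 4.22 CPM against 69.4 (16.4-fold lower, log2 ratio -4.04, -4.57 to -3.55). Hmmr, a spindle protein, stood at 8.45 against 101, the kinase Aurka at 7.51 against 73.1 and the cyclin Ccnb1 at 10.3 against 73.3. These genes rise with the genes that chose the cells, so the list is a description of the threshold.

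DNA replication genes did not share that drop. Of 30 S phase genes, 1 (Ung) was higher and 2 (Rrm2 and E2f8) lower, with a median log2 ratio of 0.15. Over all 6145 genes 0.537% were higher and 2.91% lower, so these counts show nothing particular to the list. Ung, which removes uracil from DNA, stood at 82.7 CPM against 17.7 (4.68-fold, log2 ratio 2.23, 1.97 to 2.50). Mcm4, a subunit of the replicative helicase, stood at 111 against 73.6 (0.60, 0.45 to 0.75), Mcm5 at 86.2 against 59.7 and the origin-licensing factor Cdc6 at 41.1 against 25.0. Pcna, the sliding clamp, was close in both, at 133 and 140. Under a stricter division sum of under 5, which left 777 cells, the Ung ratio was 1.59 and the Mcm4 ratio 0.40. That cut also moved the cells with a sum of 5 or more into the dividing population, so both sides of the ratio changed. Set against the LTi or ILC3-like cells, 11 of 29 S phase genes were higher and 0 lower (5.05% and 7.13% of all genes). Against the ILC2-like cells 0 were higher and 0 lower (5.02% and 3.11% of all genes).

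**Figure D3:**
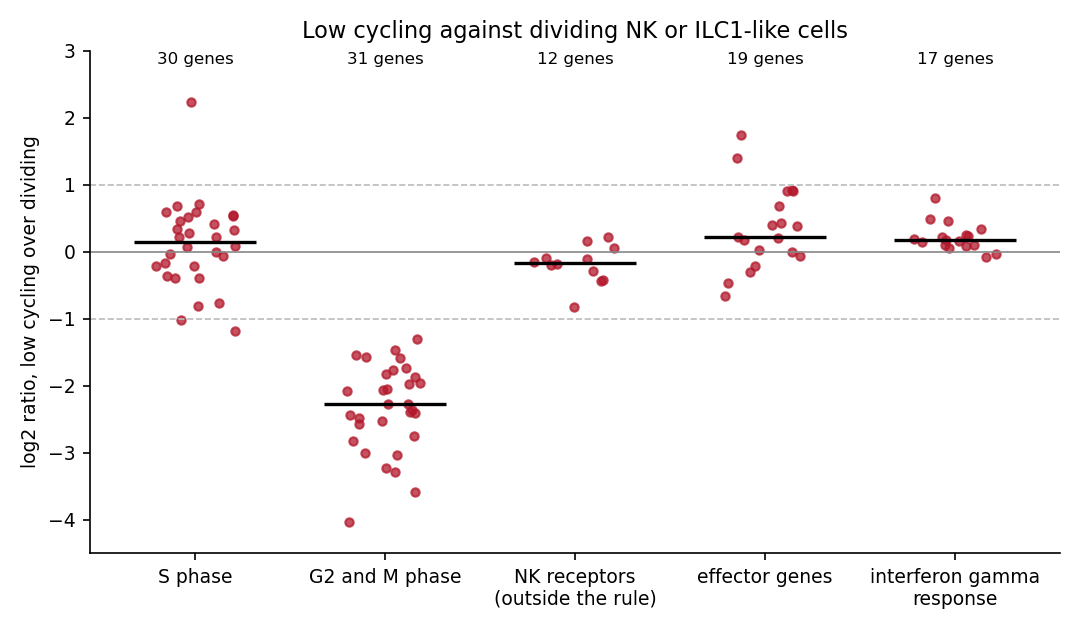
Log2 ratio of the low cycling over the dividing NK or ILC1-like cells for each measured gene of 5 lists (points), with each list's median (line) and the 2-fold limits (dashed). The G2 and M phase genes sit around their median of -2.27, while the S phase genes sit around 0.15, the NK receptors around -0.17, the effector genes around 0.23 and the interferon gamma response genes around 0.18.

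The low cycling and dividing cells, both chosen by the same receptor sum, differed 2-fold in few genes of any kind. Of 12 NK receptors, 19 adaptor and signalling genes, 13 type 1 factors and 17 interferon gamma response genes, 0 were at least 2-fold higher or lower. These counts lie near the share over all 6145 genes, 0.537% higher and 2.91% lower, and show nothing particular to these lists. Ifng stood at 438 and 432 CPM, with a log2 ratio of 0.02 (-0.05 to 0.09), and Nkg7 at 630 and 661. Tyrobp stood at 1475 against 974 CPM, under 2-fold (log2 ratio 0.60). Tcf7, a factor of early lymphoid progenitors, and the interleukin 7 receptor gene were among those higher in the low cycling cells. Tcf7 stood at 156 against 65.1 CPM (2.39-fold, log2 ratio 1.26, 1.11 to 1.41) and Il7r at 159 against 70.6 (2.26-fold, 1.17, 1.03 to 1.32). At 4000 UMIs, a Tcf7 UMI was found in 39.4% of the low cycling and 19.8% of the dividing cells. The survival gene Bcl2 stood at 61.3 against 34.5 CPM. The cell cycle inhibitors Cdkn2c and Cdkn2d, and Ccng2, were lower, at 1.41 against 12.5, 27.9 against 69.2 and 5.75 against 13.5 CPM.

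Of 19 effector genes, 2 were higher in the low cycling cells. Ccl4 stood at 90.6 against 27.1 CPM (log2 ratio 1.74, 1.52 to 1.96), and Lta at 139 against 52.6 (1.40, 1.24 to 1.56). Ccl4 UMIs were concentrated: they were found in 87 of the 988 cells, and 10 cells held 50.8% of them. The Ccl4 ratio ranged from 1.30 to 2.74 over 13 alternatives, the lowest with the division cut at 5 for both populations. Ly6d (104 against 1.35 CPM) and the MHC class II gene H2-Aa (58.9 against 27.8 CPM) also led the higher genes, but without the 17 cells of high Ly6d and the 30 cells of high MHC class II genes their log2 ratios were -0.27 and -1.78.

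The same rule chose 343 of 7258 bone marrow cells (4.73%, 4.25 to 5.24), with a median of 4825 UMIs, and 16 more cells with a division sum of 10 or more. The rule counts UMIs, and the median over all kept cells was 3447.5 in bone marrow and 9294 in fetal liver. The same sums are therefore unlike cuts in the 2 libraries, and the shares chosen cannot be compared directly. Klrd1 supplied 86.2% of their receptor UMIs, close to the fetal value, and the receptor sum again had a median of 12. Beyond this the 2 populations were far apart. Of 6661 genes, 8.6% were higher in the fetal cells and 9.88% lower. The fetal cells carried more Ifng, interferon gamma response and fetal programme transcripts, and the adult cells more Eomes, Ly49 receptor, Xcl1, Ccl4 and early response transcripts. Tissue, age and library go together in this comparison. Sex differed in part: Xist was at 0 UMIs in the bone marrow cells and at 232 CPM in the fetal ones, which hold cells of both sexes. Between the cells with Y-linked and no Xist UMIs alone, 267 fetal and 156 adult, a comparison added after values were seen, the log2 ratio was 3.57 for Ifng, 4.27 for Igtp, -4.21 for Eomes, 2.06 for Tbx21 and -4.95 for Xcl1.

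The receptor repertoire differed. Of 15 NK receptors outside the rule, 4 were higher in the fetal cells (Klrb1b, Cd226, Cd160 and Fcgr3) and 7 lower (Klrb1f, Klre1, Klri2, Klra1, Klra3, Klra4 and Klra7), with a median log2 ratio of -0.92 against 0.01 over all genes. The Ly49 genes were adult: Klra4 had 1 UMI in the fetal cells and 74.6 CPM in the adult ones (log2 ratio -9.31, -14.63 to -6.81), Klra7 had 2 UMIs against 31.7 CPM, and Klra3 and Klra1 had 0 UMIs against 45.6 and 15.6 CPM. Reads of the Ly49 genes may be split between close copies. Klre1, whose product pairs with other lectin-like receptors, stood at 26.1 against 139 CPM, and Klri2 at 48.3 against 137. Klrb1b went the other way, at 152 against 15.0 CPM, as did Cd160, at 283 against 32.3. Among the rule genes, given as a description, Klrc1 stood at 92.6 against 49.0 and Ncr1 at 33.7 against 99.1.

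The T-box factors differed in opposite directions. Eomes was at 8.21 CPM in the fetal and 165 in the adult cells (20.1-fold lower in the fetal cells, log2 ratio -4.33, -4.73 to -3.95), and at 4000 UMIs it was found in 2.46% (1.56 to 3.66) of the fetal and 40.4% (34.0 to 47.2) of the adult cells deep enough (225 of 343, with 118 left out). At 2000 UMIs, which 326 adult cells reached, the shares were 1.22% and 25.5%. Tbx21 was at 21.9 against 4.45 CPM (4.93-fold higher, 2.30, 1.29 to 3.53), found in 8.33% and 1.33%. Over 12 alternatives the ratio of Eomes ranged from -5.01 to -4.17 and that of Tbx21 from 1.76 to 2.83. Runx2 and Tox, at 20.2 against 52.3 and 50.6 against 123 CPM, were the other type 1 factors lower in the fetal cells. Of the mature NK list 0 of 8 measured genes were higher and 3 lower in the fetal cells, Eomes and Klf2 among them. Of 14 measured ILC1 features 6 were higher and 1 (Xcl1) lower, where 8.6% of all genes were higher and 9.88% lower. Klf2, which controls exit from tissues, stood at 126 against 411 CPM.

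Effector genes split by product. Ifng stood at 438 CPM in the fetal and 35.1 in the adult cells (12.5-fold, log2 ratio 3.64, 3.28 to 4.03), and was found in 55.1% and 7.11% at 4000 UMIs. Lta stood at 139 against 8.91 CPM, Gzma at 58.1 against 25.0 and Csf2 at 75.6 against 19.5. Xcl1 stood at 59.7 against 986 CPM (16.5-fold lower in the fetal cells, -4.05, -4.19 to -3.90) and Ccl4 at 90.6 against 909 (10-fold lower). In all, 6 of 19 effector genes were higher in the fetal cells and 2 lower, where 8.6% of all genes were higher and 9.88% lower. Of the interferon gamma response list, 13 of 17 were higher and 0 lower, with a median log2 ratio of 2.05. Igtp stood at 200 against 13.4 CPM (15-fold) and Gbp2 at 64.0 against 5.01. At 4000 UMIs the adult cells had a median of 3 UMIs of the list, against 9 in the fetal cells. Of the type I list 1 of 7 measured genes was higher (Rtp4) and 2 were lower (Ifit1, at 4.22 against 37.3 CPM, and Isg15, at 17.8 against 61.8). With so few genes, these counts lie near the shares over all genes and show nothing particular to that list.

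**Figure D4:**
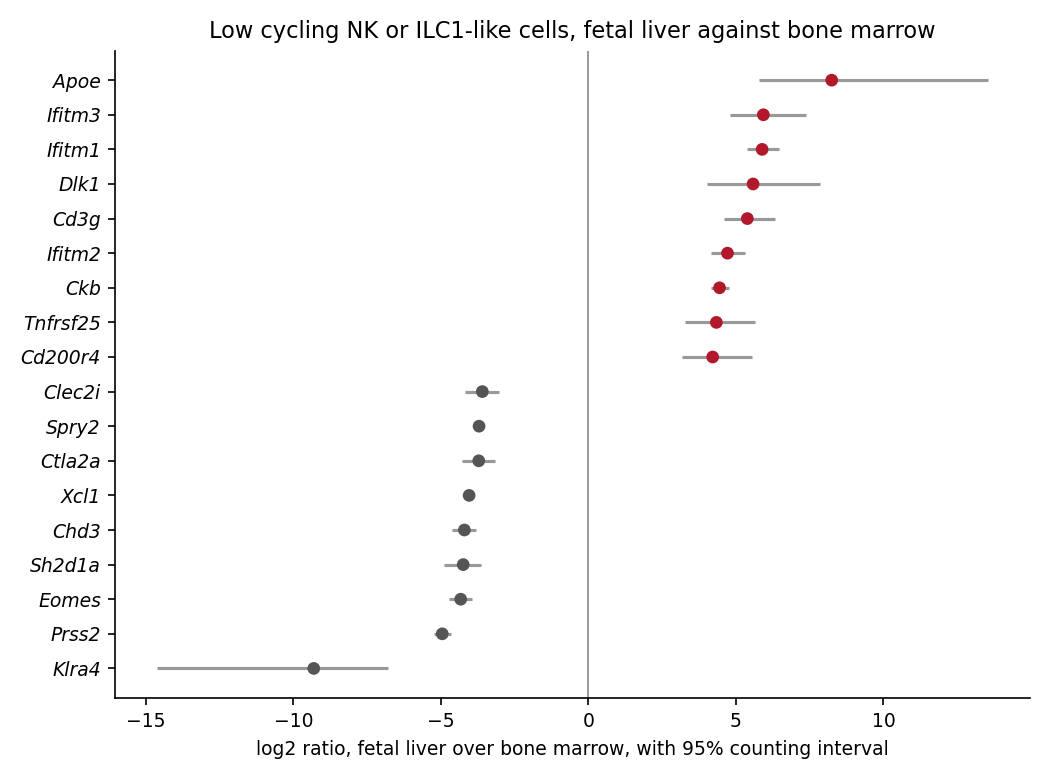
Log2 ratio of the fetal liver over the bone marrow cells chosen by the same rule, for 18 of the genes of at least 50 CPM with the 10 largest and 10 smallest ratios. Points are the ratios (red above 0, grey under 0) and bars are exact 95% intervals (counting error only), which are wide for Klra4 and Apoe, with 1 UMI in the fetal and in the adult cells. Ifitm1, Cd3g and Ckb lie at 5.89, 5.39 and 4.44, and Eomes and Xcl1 at -4.33 and -4.05.

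Prss2, a trypsinogen gene, and Spry2, an inhibitor of receptor tyrosine kinase signalling, were among the adult genes, at 14.1 against 437 and 64.5 against 844 CPM. Homing and developmental genes differed as well. Cxcr6 stood at 216 against 13.4 CPM (16.2-fold) and Cxcr3 at 97.5 against 19.5 in favour of the fetal cells. Ccr2, used to leave the marrow, stood at 117 against 302, and the marrow-retention receptor Cxcr4 at 7.98 against 46.8. Of 8 measured genes of the fetal and imprinted programme, 7 were higher and 0 lower (median log2 ratio 3.74): Igf2bp3 stood at 45.2 against 3.34 CPM, Dlk1 at 79.9 against 1.67, and Igf2bp1 and H19 at 22.2 and 39.8 against 0 UMIs. The early fetal NK-like list, whose genes were chosen with results of these data known, had 8 of 13 higher and 0 lower. Ckb, a creatine kinase, stood at 1139 against 52.3 CPM (21.8-fold), and Ifitm1 at 1022 against 17.3. Apoe, an apolipoprotein, stood at 169 CPM against 1 UMI (log2 ratio 8.25, 5.77 to 13.55). Cd3g stood at 279 against 6.68 CPM (41.8-fold). Apoe was found in 29.0% of the fetal cells at 4000 UMIs. In the same library it was found in 24.1% of the dividing NK or ILC1-like cells and 16.5% of the ILC2-like cells. The LTi or ILC3-like cells had it in 4.27% and the B lineage cells in 2.13%. The part of free RNA was not tested.

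Proliferation and activation genes were set apart too, although both populations passed the same division threshold. That threshold counts UMIs, and the median cell had 8169 UMIs in the fetal and 4825 in the adult population. Of 29 S phase genes 18 were higher in the fetal cells and 0 lower (median log2 ratio 1.20), and of 18 G2 and M phase genes 15 and 0 (1.94). The shares over all genes were 8.6% higher and 9.88% lower. Rrm2, the inducible subunit of ribonucleotide reductase, stood at 134 against 15.6 CPM, and Cdk1 at 67.7 against 15.6. Glycolysis genes were higher in 8 of 15, with Gapdh at 2874 against 1074 CPM and Ldha at 944 against 453, and 1 (Hk2) was lower. The antiproliferative genes Btg1 (273 against 1032 CPM) and Btg2 (98.7 against 331) and the inhibitor Cdkn1b (22.6 against 50.6) were lower in the fetal cells, as was Bcl2 (61.3 against 313). Of 20 early response genes 15 were lower and 0 higher (median -1.10), Fos among them at 548 against 2265 CPM. These genes can also be induced while cells are prepared, and the part of cell preparation was not tested.

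The adult comparison was read again with only the 606 fetal and 196 adult cells that had a UMI of Klrk1, Klrc1 or Ncr1, a choice made after the values were seen. Then 9.12% of 6604 genes were higher and 9.93% lower. The interferon gamma response list had 14 of 18 higher and 0 lower (median log2 ratio 2.50), the NK receptors 4 of 15 higher and 7 lower, and the early response genes 0 of 20 higher and 10 lower. Eomes stood at 4.64 against 149 CPM, Tbx21 at 23.2 against 6.06 and Ifng at 501 against 35.5.

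Within the fetal population, genes differed in how widely they were spread. Ltb was found in 87.6% of the cells at 4000 UMIs, Ctsw in 71.6%, Ccl5 in 63.7%, Cd160 in 59.4% and Cxcr6 in 54.1%. Klrb1b, Il7r and Tcf7 were found in 44.0%, 40.3% and 39.4%. Klrk1, Klrc1 and Ncr1, which helped to choose the cells, were found in 31.7%, 22.3% and 8.76%. Ifng reached 82 UMIs in a single cell while its median was 2 over all 988 cells. Ccl5 was found in 699 cells before thinning, 10 of which held 13.6% of its UMIs, and Lta in 346 (22.8%). Some other products came from few cells. Gzma was found in 105 cells, 10 of which held 55.4% of its UMIs, Xcl1 in 100 cells (63.1%), the granzyme gene Gzmc in 29 cells (75.9%) and the neuropeptide gene Cck in 22 cells (85.9%). By contrast the 10 highest cells held 5.45% of Klrd1 UMIs and 4.34% of Nkg7 UMIs.

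**Figure D5:**
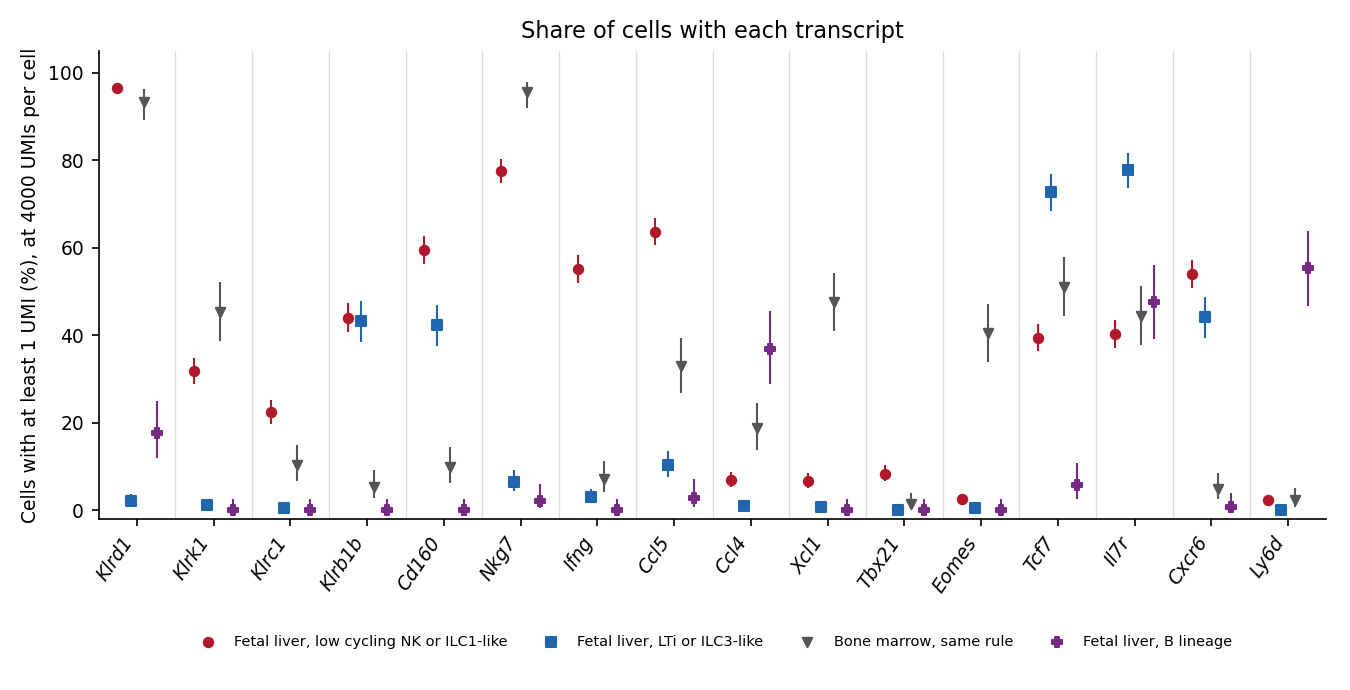
Percent of cells with at least 1 UMI of each of 16 genes after thinning every cell to 4000 UMIs, in the low cycling NK or ILC1-like cells, the LTi or ILC3-like cells, the bone marrow cells of the same rule and the B lineage cells. Bars are exact binomial 95% intervals. Ifng was found in 55.1% of the low cycling cells and in 7.11%, 2.92% and 0% of the bone marrow, LTi or ILC3-like and B lineage cells, while Ccl4 was found in 36.9% of the B lineage cells and 6.94% of the low cycling cells.

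The 606 cells with a UMI of Klrk1, Klrc1 or Ncr1 and the 382 cells in which Klrd1 stood alone were compared, a split made after values had been seen and on genes that chose the cells. Of 6189 genes, 0.469% were at least 2-fold higher in the cells with a further receptor and 1.15% lower. Klrb1c stood at 30.7 against 10.2 CPM and Klri2 at 60.6 against 29.3, and 3 of 11 NK receptors were higher and 0 lower. Ifng stood at 501 against 341 CPM, H2-K1 at 778 against 446, and Iigp1 at 63.9 against 26.9. Ccl5 ran the other way, at 1391 against 2525 CPM, though under 2-fold. Cox6a2 (7.15 against 70.0 CPM), Mzb1 (7.15 against 53.5), Ly6d (38.4 against 205), Plac8 (79.0 against 334) and Mef2c (26.1 against 73.9) were lower.

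Those last genes were concentrated in a few cells, marked off by a threshold set after values were seen. Of the 988 cells, 17 (1.72%) had at least 5 UMIs of Ly6d, a marker of early B lineage commitment, and 14 of the 17 had Klrd1 alone, with a median receptor sum of 5. In them Ly6d stood at 5558 CPM, Cox6a2 at 1434, Mzb1 at 1034, Cd79a at 603, Vpreb3 at 425, Tcf4 at 266, Irf8 at 235 and Siglech at 184, against 1.08, 5.38, 6.34, 5.38, 1.20, 17.6, 46.9 and 0.359 in the other 971. Nkg7 was at 146 against 639 CPM, Ifng at 38.1 against 446, Klrb1b at 6.35 against 155 and Tbx21 at 0 UMIs, while Tyrobp was at 1428 against 1476. The combination of Siglech, Tcf4, Irf8, Cox6a2 and Mzb1 is known from plasmacytoid dendritic cells and their precursors, and Cd79a and Vpreb3 from B cell precursors. These cells met the rule while carrying few other NK genes, and they were left in, unnamed. Of 7030 genes, 20.5% were higher and 11.4% lower in them. Of the NK receptors 1 of 12 was higher and 7 lower, and of the B lineage markers 6 of 6 were higher.

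A second threshold of that kind marked 30 cells (3.04%), which had at least 10 UMIs of the MHC class II genes H2-Aa, H2-Ab1 and H2-Eb1 (H2-Aa at 1301 against 7.94 CPM and Cd74 at 3492 against 68.9), with Klrd1 at 1545 CPM against 1648 in the rest, and Nkg7 at 744 against 625. Of 6381 genes 5.42% were higher and 6.61% lower in them, and of the NK receptors 0 of 11 were higher or lower. The 30 cells held 335881 UMIs, so the counts for them carry much counting error too. Their median was 11400.5 UMIs, against 8112 in the rest, and a part of doublets was not tested. Replication-dependent histone genes marked 147 cells (14.9%), whose division sum had a median of 6 against 1. Of 25 G2 and M phase genes 14 were higher in them and 1 lower, and of 30 S phase genes 4 were higher and 0 lower, where 2.53% of 6233 genes were higher and 2.28% lower. Tcf7 stood at 69.6 against 175 CPM and Il7r at 93.7 against 174 in the same cells.

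RNA of both sexes was present: 379 cells had Xist UMIs and no UMIs of the Y-linked genes Ddx3y, Eif2s3y, Uty and Kdm5d, 267 had the reverse and 325 had neither. Both kinds of RNA were found in 17 cells (1.72%), with a median of 13102 UMIs. Of 6220 genes, 0.338% were at least 2-fold higher in the cells with Xist and 0.434% lower, sex-linked genes included. Of the NK receptors, 0 of 11 were higher or lower, and of the effector genes 1 of 18 was higher (Xcl1, at 92.4 against 33.9 CPM). Ifng stood at 452 and 412 CPM, Nkg7 at 651 and 629, Tbx21 at 22.7 and 23.3, and Eomes at 8.26 and 9.31.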

How the data were processed

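Single-cell 3′ libraries of α4β7-expressing progenitors (1 from fetal liver, 1 from adult bone marrow) were used. The authors deposited UMI count matrices with non-cell barcodes filtered out, per the labels' protocols. The matrix headers name software 3.0.1 and format 2, and the submitters' processing notes name Seurat 4.0 and mm10. Neither an aligner nor a strand setting is named in those labels or headers, so overlapping and antisense genes cannot be told apart. The members and the 29 gene lists were chosen with earlier results of these data known. Counts were summed over the cells of a class and scaled to CPM. Ratios carry exact conditional 95% intervals, levels Poisson intervals and shares Clopper-Pearson intervals, which cover counting error only. A gene at 0 UMIs is given a bound at a floor of 3 counts. For each comparison the 10 highest and 10 lowest ratios of genes with at least 50 CPM, passing over rule, mitochondrial and ribosomal protein genes and unnamed gene models, were eligible to be named, with the markers and list members. Shares were read after thinning to 4000 UMIs with a fixed seed. B lineage cells had at least 8 UMIs summed over 5 genes, Cd79a, Vpreb1, Vpreb3 and Igll1 among them. Some genes of the lists are not reported here by name. The intervals were checked on simulated data. Python 3.11.15, scipy 1.17.1, R 4.3.3 and edgeR 4.0.16 (for TMM factors) were used. Alternatives were scaling, cell weighting, minimum level, rule thresholds, gene minimum and leaving out the deepest 5% of each class.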

Additional observations from a re-analysis of the deposited data

How the results depend on the processing

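The number of low cycling NK or ILC1-like cells was 1113 with a receptor sum of at least 3, 689 with at least 8, 777 with a division sum under 5, 999 with the rule on thinned cells, 981 with at least 1000 genes and 961 with at most 5% mitochondrial UMIs. Of 664 log2 ratios of at least 2-fold, 7501 of 7802 values under alternatives kept the sign and 2-fold, and 15 had the other sign. Counts moved most with the minimum level. With at least 50 CPM the higher and lower genes numbered 9 and 74 against the dividing cells, 113 and 122 against the LTi or ILC3-like cells, 109 and 49 against the ILC2-like cells, 55 and 53 against all other fetal liver cells, 195 and 181 against bone marrow, 7 and 16 for cells with a further receptor, and 2 and 5 for Xist against Y cells. With no minimum and a pseudocount of 1 CPM they were 117 higher against the dividing cells (33 as reported), 633 and 864 against the LTi or ILC3-like cells (332 and 469), 552 and 447 against the ILC2-like cells (316 and 196), 503 lower against all other fetal liver cells (212) and 1126 and 1280 against bone marrow (573 and 658). Alternatives added after seeing the data were single-sex cells, cells with a further receptor and cells without high Ly6d or MHC class II. Against the dividing cells 73 genes were higher in Xist cells alone and 104 in Y cells alone, and 32 genes (21 as reported) were higher in Xist than in Y cells without the Ly6d and MHC class II cells. The signs that turned were these. Without the deepest 5%, Mt1 (0.33) and Prtn3 (1.30) against the dividing cells and Prtn3 (1.35) against the LTi or ILC3-like cells. Without the Ly6d and MHC class II cells, H2-Aa (-1.78) and Ly6d (-0.27) against the dividing cells, Ly6d (-1.64) against the ILC2-like cells, H2-Aa (-0.85) against all other fetal liver cells and Ly6d (0.47) for Xist against Y cells. In Y cells, Homer2 (-0.12) against the LTi or ILC3-like cells and Cck (0.21) against all other fetal liver cells. With at least 1000 genes Hbb-bs (0.64) against all other fetal liver cells, with a receptor sum of at least 8 Hbb-bs (-0.024) and with a further receptor Rasl11a (-0.049) against bone marrow, and in Y cells Hbb-bs (-1.14) and Rasl11a (-0.18) against bone marrow. Except where a value shows it, the cause was not tested. No paired analysis was possible because each tissue has 1 library.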
